A study of Mus musculus with 12 samples.

Results

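This report describes 9 genes that encode transcription factors used to pattern mesenchyme, in the lungs of mouse embryos: Tbx5 and Tbx3 of the T-box family, the homeobox genes Prrx1, Alx1, Msx1, Meis2 and Hoxd8, the basic helix-loop-helix gene Twist2 and the zinc-finger gene Sall1. They were chosen by symbol, as mesenchymal and patterning factors outside the Hoxa cluster, with earlier results of these data known. They were found by their Ensembl identifiers in a count table of 31078 genes. All 9 were in the table and all 9 had enough reads to be tested, among 9519 genes tested.

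The study removed Intu, which belongs to the CPLANE complex and serves to build primary cilia, and asked how lungs of mutant embryos differ from wild-type lungs and the left lung from the right. Lungs were taken at embryonic day 12.5 on a C57BL/6 background, from crosses of mice that carried an Intu knockout allele, and RNA was sequenced. The groups were Intu-knockout (IntuKO) left lung, IntuKO right lung, wild-type (WT) left lung and WT right lung, with 3 libraries each, numbered 1 to 3. The labels do not give the part of Intu that the allele lacks, and the mutation was in the whole embryo, with no Cre or transgene named.

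In the embryonic lung, Hedgehog ligand made by the epithelium is received by the mesenchyme, where primary cilia are needed to turn it into a change of GLI transcription factors. T-box factors of the lung mesenchyme act upstream of Fgf10 and of lung bud growth. The other factors are better known from the limb, face, skin and kidney, where they set position, hold back differentiation or mark subsets of mesenchymal cells.

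RNA came from whole lungs, so fewer cells of a type and less RNA per cell cannot be told apart in any value below. Levels of single genes are given as normalised CPM, the reads of a gene scaled by the total of its library and a TMM factor, and levels of marker lists and of their genes Pax1, Alb, Afp and Actc1 as plain CPM, without the TMM factor. The part of the table used here covers chromosomes 1 to 7, 10, X and part of 8 and held 10290103 to 10753386 reads per library. Intu averaged 26.9 ± 0.67 CPM in IntuKO left and 29.5 ± 1.69 CPM in IntuKO right lungs, against 31.2 ± 1.13 CPM in WT left and 31.8 ± 3.10 CPM in WT right lungs (SD, n = 3 each), which did not pass the test (edgeR's quasi-likelihood test, adjusted p = 0.162). A count over all exons does not show a small lesion, so it checks the labels only in part. Gli1, the transcription factor that Hedgehog signalling switches on, did separate the genotypes, at 150.6 to 185.5 CPM in IntuKO and 344.6 to 394.4 CPM in WT libraries. Markers of lung mesenchyme (7 of 12 in the table, Tbx5 among them) summed to 7021 to 8040 CPM in IntuKO and 6379 to 6990 CPM in WT libraries, mostly from the collagens Col3a1 and Col1a2, without which the other 5 summed to 1279 to 1345 CPM in IntuKO and 1252 to 1269 CPM in WT libraries. The table held 4 markers of lung epithelium, which summed to 128 to 171 CPM in IntuKO and 138 to 161 CPM in WT libraries. Xist, the RNA of the inactive X chromosome, also differed, at 107 to 985 CPM in IntuKO and 1271 to 2269 CPM in WT libraries. Its part in the results was not tested. A fit with Xist as a covariate cannot separate Xist from genotype, since the ranges do not overlap. Values of that fit stand beside the calls that it ended or made.

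Per kilobase of exon, the mean level over the 12 libraries ran from Tbx5 (90.9 CPM per kb), Tbx3 (45.1), Meis2 (15.4), Twist2 (6.68) and Prrx1 (4.46) to Msx1 (0.789), Hoxd8 (0.634), Alx1 (0.330) and Sall1 (0.148). The library ranges of neighbours in that order overlapped for Twist2 and Prrx1, for Msx1 and Hoxd8, for Hoxd8 and Alx1, and for Alx1 and Sall1. The T-box genes were thus abundant in every library, while Alx1, Hoxd8 and Sall1 rested on few reads.

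**Figure D1:**
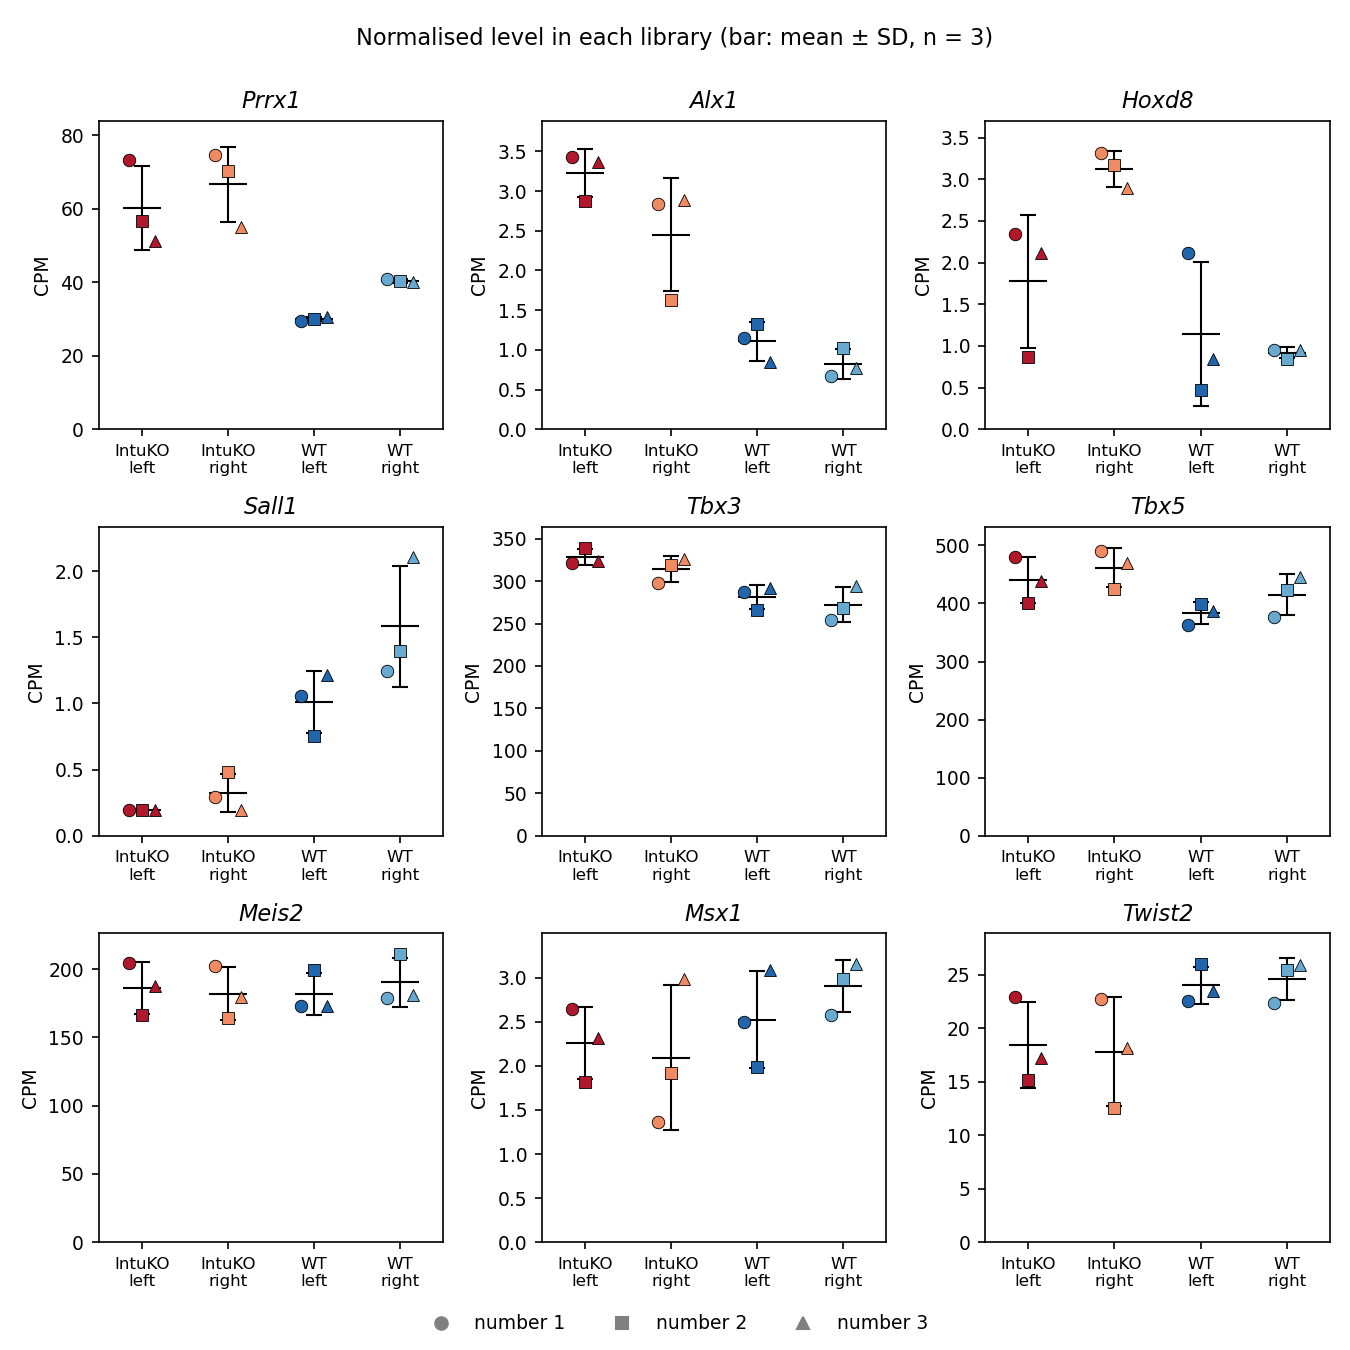
Normalised level (CPM, linear axis from 0) of each of the 9 factors in each of the 12 libraries, with points for libraries 1, 2 and 3 and a bar for the mean ± SD of 3. The IntuKO points lie above all WT points for Prrx1, Alx1 and Tbx3 and below them for Sall1, while those of Tbx5, Meis2, Msx1, Twist2 and Hoxd8 overlap with WT points.

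Promoter sequence was in the reference tables for 6 of the 9 genes (not for Alx1, Tbx3 and Tbx5), from 250 bases before to 50 after a transcript start (RefSeq, GRCm38.p6). The windows of Prrx1, Hoxd8 and Sall1 are shown because these are the factors called between genotypes that have an entry. The Prrx1 window is chr1:163313601-163313900 on the minus strand, the Hoxd8 window is chr2:74704365-74704664 on the plus strand, and the Sall1 window, the outermost of its 3 annotated starts, is chr8:89044113-89044412 on the minus strand.
Prrx1: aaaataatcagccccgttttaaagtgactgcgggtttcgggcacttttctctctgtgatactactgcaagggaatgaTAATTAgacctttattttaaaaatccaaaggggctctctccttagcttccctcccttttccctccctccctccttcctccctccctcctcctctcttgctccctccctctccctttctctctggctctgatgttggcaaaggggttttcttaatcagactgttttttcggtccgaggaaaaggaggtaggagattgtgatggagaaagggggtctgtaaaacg
Hoxd8: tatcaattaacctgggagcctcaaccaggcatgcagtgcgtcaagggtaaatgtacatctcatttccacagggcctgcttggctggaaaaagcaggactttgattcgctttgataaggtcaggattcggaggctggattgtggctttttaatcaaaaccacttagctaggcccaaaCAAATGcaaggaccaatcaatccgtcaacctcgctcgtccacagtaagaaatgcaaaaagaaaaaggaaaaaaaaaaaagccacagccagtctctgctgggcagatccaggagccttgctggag
Sall1: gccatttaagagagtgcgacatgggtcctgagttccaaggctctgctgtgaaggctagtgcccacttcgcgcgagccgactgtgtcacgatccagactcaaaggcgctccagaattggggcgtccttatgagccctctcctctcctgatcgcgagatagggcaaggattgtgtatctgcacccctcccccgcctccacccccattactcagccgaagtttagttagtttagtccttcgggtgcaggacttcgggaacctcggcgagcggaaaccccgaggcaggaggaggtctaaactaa
The capitals mark the matches to 4 motifs searched on both strands: GACCACCCA for GLI, AGGTGTGA for T-box, TAATTA for homeodomain factors and CANNTG, the E-box of basic helix-loop-helix factors. The Prrx1 window held TAATTA at position -173 from the start, a motif in 5.29% of 32851 promoter windows. The Hoxd8 window held the E-box CAAATG at -74, and the Msx1 window, not printed, held CACCTG at -210, against 72.3% of all windows with an E-box. GACCACCCA (0.253% of windows) and AGGTGTGA (1.28%) were in none of the 8 windows of these genes, and the Sall1 window above held none of the 4 motifs. A match is only a description of these letters. GC content was 47.7% for Prrx1, 46.7% for Hoxd8 and 57.3% for Sall1, against a median of 52.7% over all windows.

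The first comparison asked what differs between IntuKO and WT lungs, taking the mean of the left and right differences. Prrx1 (1.82-fold), Alx1 (2.93-fold), Hoxd8 (2.29-fold) and Tbx3 (1.16-fold) were higher in IntuKO lungs, and Sall1 was lower, at 0.205 times its WT level. Thus 5 of 9 passed the test, at an adjusted p under 0.05 over all genes (edgeR's quasi-likelihood test, Benjamini-Hochberg adjustment). Of all genes tested, 5.7% were called, 2.08% as higher and 3.62% as lower. Since the 9 were chosen with earlier results of these data known, these shares do not test the factors as a group. Sall1 had enough reads to be tested only through WT libraries, and Alx1 and Hoxd8 mainly through IntuKO libraries. The WT libraries of Alx1 were also enough by themselves. Because left and right libraries of the same number moved together within a genotype, the counts of each such pair were also summed, which sets 3 IntuKO against 3 WT pairs. Then 1.38% of 10203 genes were called, and of the 9 factors 3 were: Prrx1, Alx1 and Sall1. Libraries of IntuKO and WT did not overlap, 6 against 6, for Prrx1, Alx1, Tbx3 and Sall1, and for 4.02% of all genes tested.

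The T-box genes come first because they are the most abundant. Tbx5 (chromosome 5, 119832668 to 119885219, plus strand, GRCm38) is needed for the lung buds to form. It stood at 481, 401 and 439 CPM in IntuKO left and 490, 426 and 470 CPM in IntuKO right lungs, against 362, 400 and 387 CPM in WT left and 377, 424 and 445 CPM in WT right lungs. The genotypes overlapped, with the IntuKO libraries of number 2 as the lowest on each side among IntuKO. Its genotype difference was 0.18 on the log2 scale (SE 0.06, 95% interval 0.06 to 0.30, adjusted p = 0.0832 in edgeR's test), so no difference was called. It passed with DESeq2 (adjusted p = 0.0366) and without IntuKO pair 2 (0.0171) or IntuKO left library 2 (0.0383).

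Tbx3 (chromosome 5, 119670669 to 119684724, plus strand), a T-box repressor and neighbour of Tbx5, stood at 321, 339 and 324 CPM in IntuKO left and 297, 319 and 326 CPM in IntuKO right lungs. WT left lungs held 287, 266 and 291 CPM and WT right lungs 254, 268 and 294 CPM. Every IntuKO library was above every WT library, by a small margin. The difference, 0.21 on the log2 scale (SE 0.04, 95% interval 0.12 to 0.31), was called (adjusted p = 0.0109), but the call was lost with pairs summed (adjusted p = 0.0913), without IntuKO pair 3 (0.0574) and without WT pair 2 (0.0769). On each side alone the difference was of like size, 0.22 on the left (adjusted p = 0.126) and 0.21 on the right (adjusted p = 0.143), and was not called, except on the left without a filter on low counts (adjusted p = 0.0445).

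The antisense gene Tbx3os1 shares 115 exon bases with Tbx3, and whether counting used strand is not given in the sources used here, so reads in that stretch cannot be told apart. Tbx3os1 held 57.3, 84.3 and 58.9 CPM in IntuKO left and 58.8, 75.6 and 67.8 CPM in IntuKO right lungs, against 38.0, 39.9 and 45.7 CPM in WT left and 35.4, 42.5 and 47.7 CPM in WT right lungs. It was higher in all 6 IntuKO libraries, with a log2 fold change of 0.69 (SE 0.11, adjusted p = 0.00147), and also with pairs summed (adjusted p = 0.0407).

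Among the homeobox genes, Prrx1 showed the firmest difference. Prrx1 (chromosome 1, 163245119 to 163313710, minus strand) encodes a paired-related factor of limb and face mesenchyme that is also needed for lung vessel development. It stood at 73.2, 56.6 and 51.2 CPM in IntuKO left and 74.6, 70.3 and 55.1 CPM in IntuKO right lungs, against 29.6, 30.0 and 30.6 CPM in WT left and 40.9, 40.3 and 40.0 CPM in WT right lungs. All IntuKO libraries were above all WT libraries, and they varied more, with an SD of 11.4 and 10.3 CPM on the left and right, against 0.495 and 0.455 CPM in WT. On the log2 scale the difference was 0.86 over both sides (SE 0.09, adjusted p = 7.03e-05), 1.00 on the left (SE 0.13, adjusted p = 0.00154) and 0.72 on the right (SE 0.12, adjusted p = 0.00869). It was lost on the right without WT pair 2 (adjusted p = 0.0702), and over both sides with pairs summed and that pair left out (0.0604).

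Alx1 (chromosome 10, 102998707 to 103030215, minus strand), a paired-like factor of facial mesenchyme, was scarce. It stood at 3.42, 2.88 and 3.37 CPM in IntuKO left and 2.83, 1.63 and 2.89 CPM in IntuKO right lungs, against 1.15, 1.32 and 0.842 CPM in WT left and 0.669, 1.03 and 0.765 CPM in WT right lungs. Every IntuKO library was again above every WT library. Gm17028, on the same strand, shares 243 exon bases with Alx1 and had at most 2 reads in a library. In reads, 176 in IntuKO against 61 in WT libraries gave a ratio of 2.94 (95% interval 2.19 to 4.01, counting error only). The fitted log2 fold changes were 1.55 over both sides (SE 0.21, adjusted p = 0.000554), 1.53 on the left (adjusted p = 0.0161) and 1.56 on the right (adjusted p = 0.0204). With pairs summed, the call over both sides was lost without IntuKO pair 3 (adjusted p = 0.0867) or WT pair 1, 2 or 3 (0.0761, 0.0610 and 0.0574).

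Msx1 (chromosome 5, 37820485 to 37824583, minus strand), a homeobox repressor that responds to BMP signals in many mesenchymes, was also scarce. It stood at 2.64, 1.82 and 2.31 CPM in IntuKO left and 1.37, 1.92 and 2.99 CPM in IntuKO right lungs, against 2.50, 1.98 and 3.09 CPM in WT left and 2.58, 2.99 and 3.16 CPM in WT right lungs. The genotypes overlapped on each side. A log2 fold change of -0.32 (SE 0.20, 95% interval -0.75 to 0.12) did not pass the test (adjusted p = 0.419), and its interval leaves room for a fall as well as for no difference.

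Meis2 (chromosome 2, 115863064 to 116065839, minus strand) encodes a TALE homeodomain cofactor of HOX proteins. It stood at 205, 166 and 188 CPM in IntuKO left and 202, 164 and 180 CPM in IntuKO right lungs, against 173, 199 and 173 CPM in WT left and 179, 211 and 181 CPM in WT right lungs. Libraries of the same number were alike on the left and right, and the genotypes overlapped. Its log2 fold change of -0.015 (SE 0.068, adjusted p = 0.935) had a 95% interval of -0.16 to 0.13, so a difference of the size seen for Prrx1 lay outside it.

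Hoxd8 (chromosome 2, 74704615 to 74707933, plus strand) is a HOX gene of the Hoxd cluster, which gives cells position along body axes. It stood at 2.35, 0.863 and 2.12 CPM in IntuKO left and 3.32, 3.17 and 2.89 CPM in IntuKO right lungs, against 2.11, 0.472 and 0.842 CPM in WT left and 0.955, 0.840 and 0.957 CPM in WT right lungs. The right lungs were separated by genotype and the left lungs overlapped, with IntuKO left library 2 as low as WT and WT left library 1 as high as IntuKO. In reads, 152 in IntuKO against 65 in WT libraries gave a ratio of 2.39 (95% interval 1.77 to 3.24, counting error only). Fitted log2 fold changes were 1.20 over both sides (SE 0.31, adjusted p = 0.0400), 0.63 on the left (SE 0.45, adjusted p = 0.711) and 1.76 on the right (SE 0.44, adjusted p = 0.0698). On the right alone it passed with DESeq2 (adjusted p = 0.0289), without a filter (6.58e-05), with the number shared across genotypes as a replicate block (0.0338), in a fit of the right lungs alone (0.0105), and without IntuKO left library 2 (0.0334), WT left library 1 (0.0251) or WT left library 2 (0.0444). The call over both sides had the highest adjusted p of the 5. That call was lost with pairs summed (adjusted p = 0.107), with pairs as a random effect in limma (0.0998) and with Xist as a covariate (log2 fold change 0.75, adjusted p = 0.325), and in 20 of 24 fits that left out a library or a pair.

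Twist2 (chromosome 1, 91801461 to 91848028, plus strand) encodes a basic helix-loop-helix repressor of differentiation in skin and bone mesenchyme. It stood at 22.9, 15.1 and 17.2 CPM in IntuKO left and 22.8, 12.6 and 18.1 CPM in IntuKO right lungs, against 22.6, 26.0 and 23.5 CPM in WT left and 22.4, 25.5 and 25.9 CPM in WT right lungs. Number 1 of IntuKO was at the WT level on each side, and numbers 2 and 3 were below every WT library. With a log2 fold change of -0.42 (SE 0.13, 95% interval -0.70 to -0.14), Twist2 did not pass the test (adjusted p = 0.0791). It passed with DESeq2 (adjusted p = 0.0278) and without IntuKO pair 1 (-0.62, adjusted p = 0.00469), IntuKO left library 1 (0.0307) or IntuKO right library 1 (0.0216). Xist was at 118 and 107 CPM in IntuKO left and right library 1, against 388 to 985 CPM in the other IntuKO libraries. With Xist as a covariate, which cannot be told apart from genotype, the log2 fold change of Twist2 was -0.92 (adjusted p = 0.00129). The antisense gene Gm29100 shares 1477 of the 3174 exon bases of Twist2, so that reads there cannot be told apart without strand, and its own log2 fold change was 0.068 (adjusted p = 0.879).

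Sall1 (chromosome 8, 89027235 to 89044162, minus strand), a zinc-finger repressor of kidney, limb and neural development, had few reads, and the fewest in IntuKO lungs. It had 2, 2 and 2 reads in IntuKO left and 3, 5 and 2 reads in IntuKO right lungs, against 11, 8 and 13 reads in WT left and 13, 15 and 22 reads in WT right lungs. Every IntuKO library was below every WT library. Sall1 passed the filter on low counts only through WT libraries, so part of its difference was needed for it to be tested. In all, 16 reads in IntuKO against 82 in WT libraries gave a ratio of 0.199 (95% interval 0.109 to 0.343, counting error only). Sall1 differed by a log2 fold change of -2.28 over both sides (SE 0.31, adjusted p = 0.000554), -2.32 on the left (adjusted p = 0.0282) and -2.25 on the right (adjusted p = 0.0102). With Xist as a covariate it was -1.87 (adjusted p = 0.0501), and with pairs summed the call was lost without IntuKO pair 3 (0.0864), WT pair 1 (0.0523) or WT pair 2 (0.0604).

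Sall1 passed the filter on low counts only through WT libraries, and Hoxd8 mainly through IntuKO libraries, so part of their difference was needed for them to be tested. Alx1 reached the cutoff of that filter in all IntuKO libraries. It also did so in 2 WT left and 1 WT right libraries, which were enough for it to be tested. Some markers of neurons and neural crest moved with genotype as well: 8 of 10 tested were lower in IntuKO lungs, with a median log2 fold change of -1.36, and 11 of 14 listed genes were in the table and summed to 38.7 to 51.9 CPM in IntuKO and 49.2 to 81.0 CPM in WT libraries. Cardiac markers (8 of 15 in the table) summed to 29.7 to 47.5 CPM in IntuKO and 61.8 to 93.8 CPM in WT libraries, with Myl2 higher and Actc1 lower of 5 tested. Without Actc1, an actin at 12.9 to 27.9 CPM in IntuKO and 47.2 to 71.7 CPM in WT libraries, the other 7 summed to 16.6 to 32.6 CPM in IntuKO and 14.4 to 22.1 CPM in WT libraries. Liver markers (5 of 8 in the table) summed to 88.1 CPM in IntuKO left library 1, with Alb at 39.9 and Afp at 45.3 CPM, against 4.26 to 9.31 CPM in the other IntuKO libraries and 6.08 to 9.86 CPM in WT libraries. Markers of oesophagus and stomach (2 of 9 in the table) summed to 39.7 to 78.9 CPM in IntuKO and 51.6 to 69.1 CPM in WT libraries. Markers of body wall and limb (8 of 10 in the table) summed to 2.88 to 6.997 CPM in IntuKO and 3.95 to 4.74 CPM in WT libraries, and of 2 tested Pax7 was higher and Lmx1b lower. Their sum was highest in IntuKO left and right library 1, which alone had any Pax1, a gene of the early vertebral column, at 0.291 and 0.875 CPM. Pax7 was not confined to that pair. It was at 0.586 to 2.30 CPM in IntuKO libraries, highest in IntuKO left library 2, against 0 to 0.281 CPM in WT libraries. Lmx1b went the other way, at 0.575 to 1.27 CPM in IntuKO and 1.87 to 2.99 CPM in WT libraries. Leaving out IntuKO pair 1 therefore does not remove these marker differences. Without IntuKO pair 1 the log2 fold change over both sides was 0.74 for Prrx1 (adjusted p = 9.79e-05), 1.47 for Alx1 (0.00370) and 1.05 for Hoxd8 (0.113). The part of these cell types in the levels of the factors was not tested further.

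**Figure D2:**
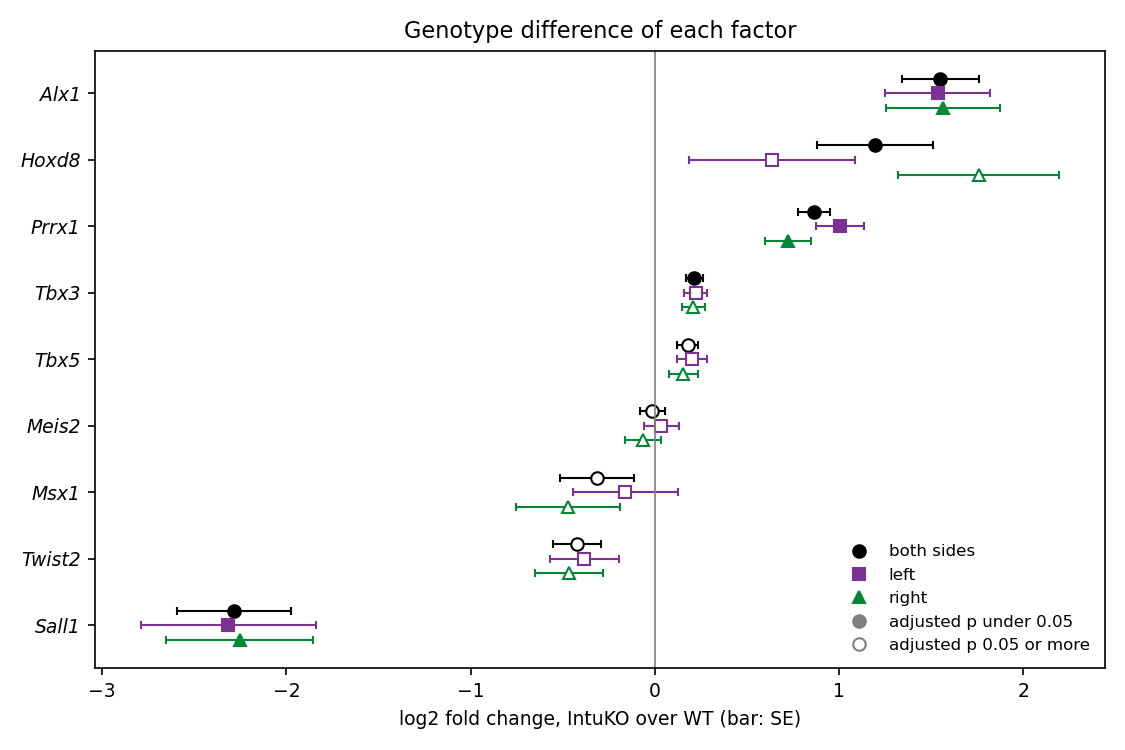
Log2 fold change of IntuKO over WT (x axis, bar for the SE) of each factor over both sides, in left lungs and in right lungs, with filled points for an adjusted p under 0.05. Alx1 at 1.55 and Sall1 at -2.28 mark the ends of the range over both sides, and Hoxd8 shows the widest gap between left (0.63) and right (1.76).

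Taken by side, Prrx1, Alx1 and Sall1 passed the test on the left, where 1.18% of all genes were called, and the same 3 factors passed on the right, where 1.51% were called. On the left, Prrx1 stayed past the threshold in every fit that left out a library or pair. Alx1 on the left was lost without IntuKO left library 1 or 3, WT left library 1 or 3, or any pair but IntuKO pair 2, with adjusted p of up to 0.0825. Sall1 on the left was lost without any 1 of the 3 IntuKO left libraries, WT left library 1 or 3, or any pair, with adjusted p of up to 0.117, and by DESeq2 (0.0992), and in a fit of the left lungs alone it had too few reads to be tested. On the right, DESeq2 called Prrx1, Alx1 and Hoxd8 and gave Sall1 no adjusted p, and the settings that called Hoxd8 are given above. Sall1 on the right was lost without IntuKO right library 3 (adjusted p = 0.0641) or IntuKO pair 3 (0.0976). Alx1 on the right was lost without IntuKO right library 1 or 3, WT right library 1 or 3, or any pair but IntuKO pair 2, with adjusted p of up to 0.139, and in a fit of the right lungs alone (0.0706).

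**Figure D3:**
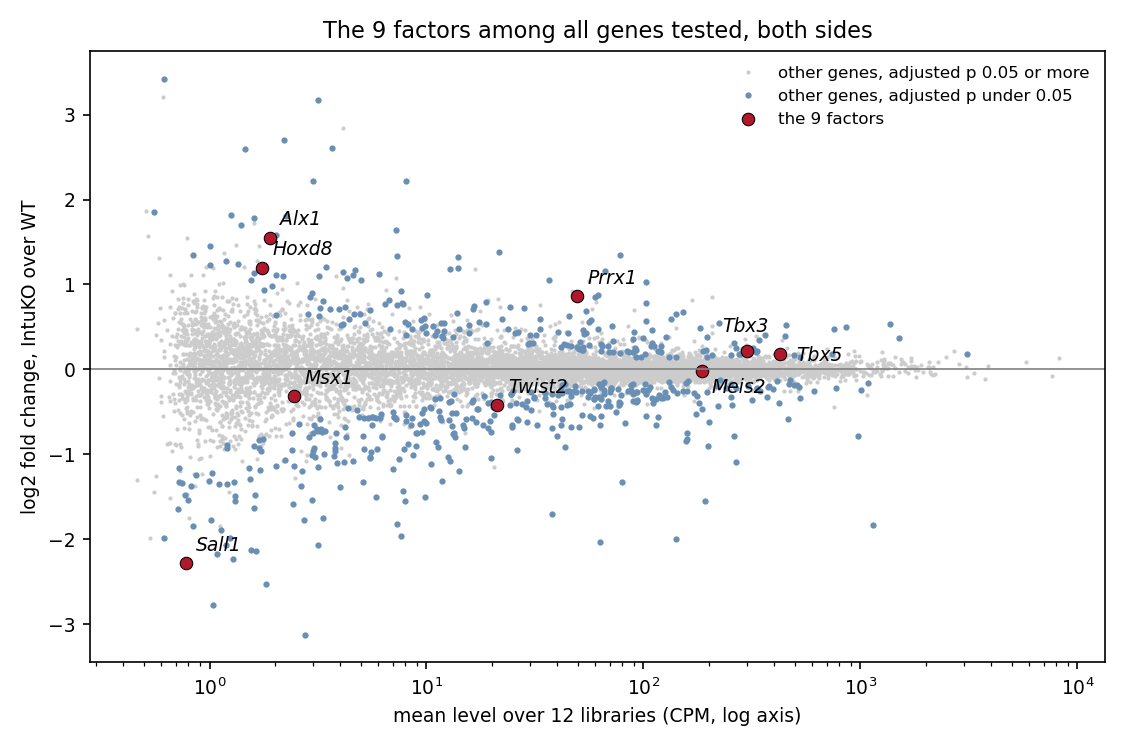
Log2 fold change of IntuKO over WT (y axis) against mean level over 12 libraries (CPM, log axis) of all genes tested over both sides, with the 9 factors as named points. Prrx1 lies apart from the bulk of genes at its level, while Alx1, Hoxd8 and Sall1 lie at low levels, where differences scatter most.

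Relatives of these factors gave a comparison within the same families. Of 25 paralogs listed, 12 were in the table and 8 were tested. None was called higher and 1 (12.5%, against 5.7% of all genes) was called lower in IntuKO lungs. The median log2 fold change was -0.0022 beside 0.0036 over all genes tested. At an unadjusted p under 0.05 there were 3 of 8 (37.5%, against 19.7% of all genes), some higher and some lower. Sall4, the paralog of Sall1, stood at 4.40, 1.92 and 4.33 CPM in IntuKO left and 5.47, 2.98 and 3.37 CPM in IntuKO right lungs, against 6.25, 8.40 and 7.76 CPM in WT left and 5.83, 9.33 and 6.60 CPM in WT right lungs. It was lower by a log2 fold change of -0.98 (SE 0.21, adjusted p = 0.0146) without overlap of the genotypes, and was not called with pairs summed (adjusted p = 0.122). Prrx2, the paralog of Prrx1, stood at -0.11 (adjusted p = 0.669), Alx4 at 0.60 (adjusted p = 0.209) and Meis3 at -0.19 (adjusted p = 0.194). Alx4 was at 9.98 and 9.96 CPM in IntuKO left and right library 1. It was at 3.86 to 6.06 CPM in the other IntuKO libraries and 3.15 to 5.26 CPM in WT libraries. Of 9 Hoxd cluster genes in the table only Hoxd8 and Hoxd13 had enough reads to be tested, and Hoxd13 stood at 0.42 (adjusted p = 0.572). Hoxd13 was at 3.13 and 3.61 CPM in IntuKO left and right library 1. It was at 0.767 to 1.74 CPM in the other IntuKO libraries and 0.955 to 1.82 CPM in WT libraries.

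Of 68 other mesenchymal transcription factors listed, 31 were in the table and 21 were tested. None was called higher and 2 (9.52%, against 5.7% of all genes) were called lower in IntuKO lungs, with a median log2 fold change of -0.0070. At an unadjusted p under 0.05 there were 9 of 21, some higher and some lower, against 19.7% of all genes. Hand2, a basic helix-loop-helix factor of sympathetic neurons, heart and gut mesenchyme that is also on the neuron list above, fell by 1.75 (SE 0.27, adjusted p = 0.00134), with 0.863 to 2.64 CPM in IntuKO and 2.55 to 6.72 CPM in WT libraries. Gata5, a GATA factor of endoderm and mesothelium, fell by 0.22 (SE 0.04, adjusted p = 0.00666), with 211 to 236 CPM in IntuKO and 237 to 292 CPM in WT libraries. Both held with pairs summed (adjusted p = 0.0180 for Hand2 and 0.0466 for Gata5). Among the most abundant of those not called were Nr2f2 at 0.051, Zeb2 at 0.056 and Foxp2 at 0.13 (adjusted p = 0.0530). Of 16 listed genes of signals linked to T-box and Msx factors, 11 were tested and 5 were called (45.5%, against 5.7% of all genes). Id1 was higher by 0.25, and Gli1, Hhip, Bmp7 and Wnt2b were lower. This list was also chosen with earlier results of these data known, and it holds Gli1, used above as a check of the labels. Whether these differences are tied to the T-box and Msx factors was not tested.

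The second comparison asked how left differs from right lung. In WT lungs 0.0105% of all genes were called, and 249 of 9519 were at an unadjusted p under 0.05. None of the 9 factors was called, with 1 at an unadjusted p under 0.05. Prrx1 was that factor, lower on the left in 3 of 3 WT pairs without overlap of the sides, by 0.43 on the log2 scale (SE 0.13, unadjusted p = 0.00568, adjusted p = 1.00). With left and right of the same number as a block, 0.662% of genes were called and Prrx1 was among them (-0.43, SE 0.08, adjusted p = 0.00384). That call was lost without WT pair 1 or WT pair 2, and limma with pairs as a random effect did not make it (adjusted p = 0.285). Sall1 was also lower on the left in 3 of 3 WT pairs without overlap (-0.64, SE 0.32), and was not called. The share of all genes whose sides did not overlap, or whose pairs all went one way, was not counted. These patterns are therefore only a description.

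In IntuKO lungs no factor was called between sides, with none at an unadjusted p under 0.05, and 0% of all genes were called. Of 9519 genes, 358 were at an unadjusted p under 0.05. With pairs as a block 0.452% of genes were called and again no factor, with 2 (Prrx1 and Hoxd8) at an unadjusted p under 0.05. So were 915 of all 9519 genes. Whether 2 of 9 factors differs from that share was not tested. DESeq2 also called none of the 9 in either genotype. Prrx1 was lower on the left in 3 of 3 IntuKO pairs, by 0.14 (SE 0.12), and Tbx5 in 3 of 3 pairs of each genotype, by 0.069 in IntuKO and 0.12 in WT lungs. Alx1 was higher on the left in 3 of 3 pairs of each genotype, by 0.39 in IntuKO and 0.42 in WT lungs. Hoxd8 was lower on the left in 3 of 3 IntuKO pairs without overlap, by 0.81 (SE 0.40, adjusted p = 0.357 with pairs as a block), whereas WT pairs were split, with 1 of 3 higher on the left. As for WT lungs, the share of all genes with such patterns was not counted.

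**Figure D4:**
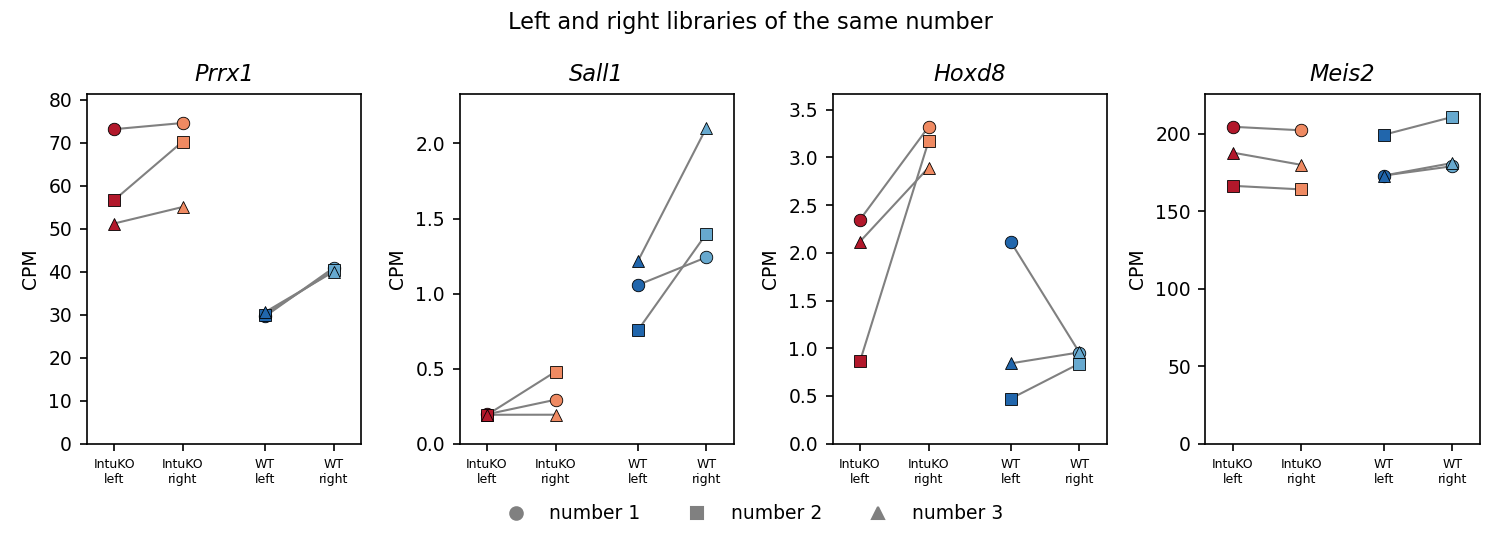
Level (CPM, linear axes from 0) of Prrx1, Sall1, Hoxd8 and Meis2 in left and right lungs, with a line that joins libraries of the same number, IntuKO beside WT. Prrx1 was lower on the left in all 6 pairs, Hoxd8 in the 3 IntuKO pairs, and Meis2 was higher on the left in the 3 IntuKO pairs and lower in the 3 WT pairs.

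Whether the genotype difference itself differed between sides was tested as an interaction, left minus right. It was called for none of the 9 factors, with none at an unadjusted p under 0.05 and none called by DESeq2, and for 0% of all genes. Of 9519 genes, 124 were at an unadjusted p under 0.05. With pairs as a block the interaction was called for 0.021% of genes and again for no factor. At an unadjusted p under 0.05 there were 2 factors (Prrx1 and Hoxd8), and 407 of all 9519 genes. For Prrx1 the genotype difference was 0.28 larger on the left (SE 0.18, 95% interval -0.10 to 0.67). For Hoxd8 it was 1.12 smaller on the left (an interaction of -1.12, SE 0.64, 95% interval -2.49 to 0.25), so that the unequal left and right values above were not told apart by the test.

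The genes whose levels followed each factor most closely over the 12 libraries are given as a description, since the libraries share 4 groups and 6 pairs. For Prrx1 the highest Pearson r of log2 CPM were with Ccdc136 (0.976), Cpm (0.955) and Igfbpl1 (0.932). For Tbx3 they were with Nfix (0.942), Ism1 (0.920) and Matn4 (0.918), and for Tbx5 with Rxfp1 (0.926), Cort (0.912) and Rimklb (0.890). Meis2 ran closest to Nkx6-1 (0.924), Mrgbp (0.912) and Wt1 (0.912). Nkx6-1 was listed here as a marker of oesophagus and stomach, and Wt1 is a gene of the lung surface mesothelium. Twist2 ran closest to Bpifb1 (0.953), Aif1l (0.952) and Cnot11 (0.950), and Msx1 to Pomgnt1 (0.910), Rnf24 (0.851) and Fam160a1 (0.838). After group means were subtracted, other genes led: Rcn1 for Prrx1 (0.966), Clstn1 for Tbx3 (0.970), St8sia2 for Tbx5 (0.955), Bves for Meis2 (0.982), Kif7 for Msx1 (0.941) and Mir351 for Twist2 (0.981), which also ran with Prrx2 (0.963). The median absolute r over all genes tested ran from 0.241 to 0.392 in these comparisons.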

How the data were processed

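RNA was sequenced from 12 embryonic lung libraries (4 groups of 3). The authors deposited whole-number read counts for each gene, not normalised, made with HISAT2 on GRCm38 and featureCounts, per the submitters' processing notes. Neither tool versions nor the strand setting were given in those notes. The table breaks off inside its last row, which was not used, and other chromosomes were not analysed here. Symbols were matched for 30915 identifiers (99.5%).

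The whole table was fitted once with edgeR 4.0.16 in R 4.3.3 (TMM, filterByExpr with a minimum count of 10 and total of 15, glmQLFit, glmQLFTest, 8 residual degrees of freedom, no covariate), with adjustment over 9519 genes and a threshold of 0.05. SE is the log2 fold change over the root of its F. Alternatives were DESeq2 1.42.0, limma 3.58.1 (voom, correlation of pairs 0.341), no TMM, no filter, a replicate block, summed pairs, Xist as a covariate and leaving out libraries or pairs. The procedure was tested on simulated data.

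The labels do not state whether replicate libraries are from different embryos, and p-values then measure the spread between these libraries only, which can be technical. No library repeated another (chi-square over degrees of freedom, 4.58 to 13.6). As a check of pairing, each library's deviation from its group mean was correlated between left and right. For equal numbers of the same genotype, r was 0.253 to 0.486 in each of 6 pairs. It was -0.393 to -0.00284 for unequal numbers of the same genotype, and -0.121 to -0.0416 for equal numbers of different genotypes. Deviations from a group mean cancel out within the group. Positive values for equal numbers thus push those for unequal numbers of the same genotype down, and these are no separate evidence of pairing. This pairing by number within a genotype is a hint from the data. It was used only in the alternatives with pairs blocked, as a random effect or summed. The main fit took the 12 libraries as independent, so its adjusted p do not account for pairing.

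The 9 factors and the gene lists were chosen with earlier results of these data known. All 9 were named in every comparison, Intu and Gli1 as checks, and of the paralog, Hoxd and other mesenchymal lists every called gene and the 4 most abundant that were not called, of which 1 is not reported here. Prrx2, Alx4, Meis3, Hoxd13, Tbx3os1, Gm29100, Xist and the signal genes were named after their values were seen. For likeness, factors with a mean of at least 2 CPM were set against all genes tested.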

Additional observations from a re-analysis of the deposited data

Results flagged for a closer look

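Meis2 had opposite left and right order in the genotypes. Its level was higher on the left in 3 of 3 IntuKO pairs and lower on the left in 3 of 3 WT pairs. The difference between those differences was 0.10 on the log2 scale (0.09903, SE 0.14, adjusted p = 1.00 by edgeR's quasi-likelihood test), and 0.10 with pairs as a block (SE 0.07, adjusted p = 0.998), so it did not pass the test. The left against right differences were 0.03 in IntuKO (SE 0.10) and -0.07 in WT lungs (SE 0.10), each smaller than the spread between libraries of different numbers.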

How the results depend on the processing

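Over both sides 5 factors were called, and 7 by DESeq2 and 7 without a filter (Tbx5 and Twist2 added in each), 5 without TMM, 5 with the number shared across genotypes as a replicate block, 4 with pairs as a random effect, 4 with Xist as a covariate and 3 with pairs summed. Leaving out a library or pair gave 0 to 6 over both sides (3 without IntuKO pair 3 or WT pair 2, and 0 with pairs summed and WT pair 2 left out), 1 to 3 on the left, 1 to 4 on the right, 0 to 1 between sides in WT, and 0 in IntuKO and in the interaction. Without a filter 4 were called on the left (Tbx3 added), 5 on the right and 1 between sides in WT. Pairs as a replicate block gave 1 between sides in WT, and 0 in IntuKO and in the interaction. The number shared across genotypes as a replicate block gave 3 on the left and 4 on the right (Hoxd8 added). For single factors, the direction turned only in differences that were not called. The interaction of Alx1 was 0.024 in limma with and without pairs (-0.029 in edgeR), and that of Sall1 was 0.071 in each (-0.062 in edgeR). When a library or pair was left out, the interaction ran from -0.25 to 0.13 for Alx1, -0.32 to 0.34 for Sall1, -0.045 to 0.073 for Tbx3, -0.017 to 0.11 for Tbx5, -0.040 to 0.65 for Msx1 and -0.11 to 0.30 for Twist2. The genotype difference of Meis2 ran from -0.092 to 0.061 over both sides, -0.033 to 0.11 on the left and -0.14 to 0.019 on the right, and that of Msx1 from -0.31 to 0.011 on the left. Left against right ran from -0.036 to 0.11 in IntuKO and -0.14 to 0.014 in WT for Meis2, -0.24 to 0.45 in IntuKO for Msx1, -0.15 to 0.26 in IntuKO and -0.097 to 0.022 in WT for Twist2, -0.47 to 0.67 in WT for Hoxd8, and -0.0097 to 0.11 in WT for Tbx3. The causes were not tested. Fits without a library or pair assume that the libraries left vary like the other groups. The fits that leave out a pair with pairs blocked or summed were chosen after seeing the data. Alx1, Hoxd8, Msx1 and Sall1 stood at a few CPM or less, where depth limits what can be told apart.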
